A study of Mus musculus with 26 samples.

Results

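Genes of primordial germ cell (PGC) specification were followed by RNA-seq in mouse embryonic stem cells (mESCs) from which Prdm14 or its partner Mtgr1 had been removed, and in cells to which they had been given back. The 9 genes, Prdm1, Tfap2c, Dppa3, Nanos3, Kit, Dnd1, Ifitm1, Ifitm2 and Ifitm3, were taken by symbol from the 24015 genes of the deposited tables. All 9 were among the 13477 genes with at least 1 RPKM in at least 2 libraries, on which the tests were run. RPKM, the reads of a gene scaled to its length and to the depth of the library, permits levels of different genes to be set side by side. Of the 26 samples of the series, the 15 RNA-seq libraries were used. The other 11, from ChIP-seq, were not analysed here.

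PGCs, the precursors of sperm and eggs, arise in the mouse from a few epiblast cells that receive BMP and WNT signals from neighbouring tissue. Prdm1 (Blimp1), Tfap2c (AP2gamma) and Prdm14 form the transcription factor network that sets these cells apart, by turning off somatic genes and turning germ cell genes on. The germ cells then protect their RNA and their survival with Nanos3 and Dnd1, migrate under the control of the receptor Kit, and carry Dppa3 (Stella) and the Ifitm membrane proteins as marks of their identity. Several of these genes are also read in mESCs, where Prdm14 acts in the maintenance of naive pluripotency, and all values below are from mESCs, not from germ cells.

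All libraries came from the Stella:GFP mESC line or its derivatives, so that every group, the wild type included, carries a transgene made of the upstream region and first part of Stella (Dppa3) joined to eGFP. Wild-type (wt) cells gave 1 library in serum+LIF and 2 in 2i+LIF, a serum-free medium with the MEK inhibitor PD0325901 and the GSK3β inhibitor CHIR99021. Prdm14-/- cells (clones G6 and F10) and Mtgr1-/- cells (clones A3, C1 and C3) are CRISPR/Cas9 mutants, each grown from a single cell. The rescue lines are the same knockout clones with a FLAG-HA-tagged cDNA: FH-Prdm14 (G6 and F10), FH-Prdm14 with the E294K substitution (F10 and G6; here E294K), which lies where Prdm14 meets Mtgr1, and FH-Mtgr1 (A3, C1 and C3). The promoter that drives these cDNAs in the sequenced lines is not given in the sources used here. All lines were kept in 2i+LIF, and all but the pair of 2i+LIF libraries were grown for 5 days in serum+LIF before RNA extraction. The only parental control in serum+LIF is 1 library, and a clone and its own history cannot be told apart from its genotype where a clone stands alone.

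The libraries held between 10668572 and 21218414 reads on genes (median 13793727). Prdm14 was at 2.77 RPKM in the wt serum+LIF library and at 1.96 and 3.60 RPKM in the Prdm14-/- libraries, so that its RNA did not tell the mutants from the wt. Cbfa2t2, the gene of Mtgr1, was at 19.9 RPKM or less in the Mtgr1-/- libraries and at 40.7 RPKM in the wt, but the Prdm14-/- libraries, with 16.6 and 16.8 RPKM, were as low, so that its level did not mark the Mtgr1 mutants either. The tagged cDNAs raised Prdm14 to 116 and 79.8 RPKM in FH-Prdm14 and to 89.9 and 105 RPKM in E294K, above its 30.8 and 19.1 RPKM in 2i+LIF, so that FH-Prdm14 is a line with more Prdm14 RNA than the wt cells in either medium. The mESC markers Pou5f1 (lowest 308.5 RPKM) and Sox2 (lowest 117.6 RPKM) were present in every library. Among replicates, Mtgr1-/- clone C3 stood apart from A3 and C1 (chi-square per degree of freedom of 46.9 and 42.8, against 6.99 between A3 and C1), and the pair of 2i+LIF libraries differed most (69.2).

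The Ifitm genes were the most abundant of the 9, between 70.8 RPKM (Ifitm1, Mtgr1-/- C3) and 589 RPKM (Ifitm2, wt 2i+LIF). Tfap2c, Dppa3, Kit and Dnd1 lay between 2.52 and 67.9 RPKM, Prdm1 between 1.65 and 6.80 RPKM, and Nanos3 between 0.215 and 3.53 RPKM. Kit had the widest range, 26.9-fold from its lowest to its highest library, and Ifitm3 the narrowest, 2.20-fold.

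**Figure D1:**
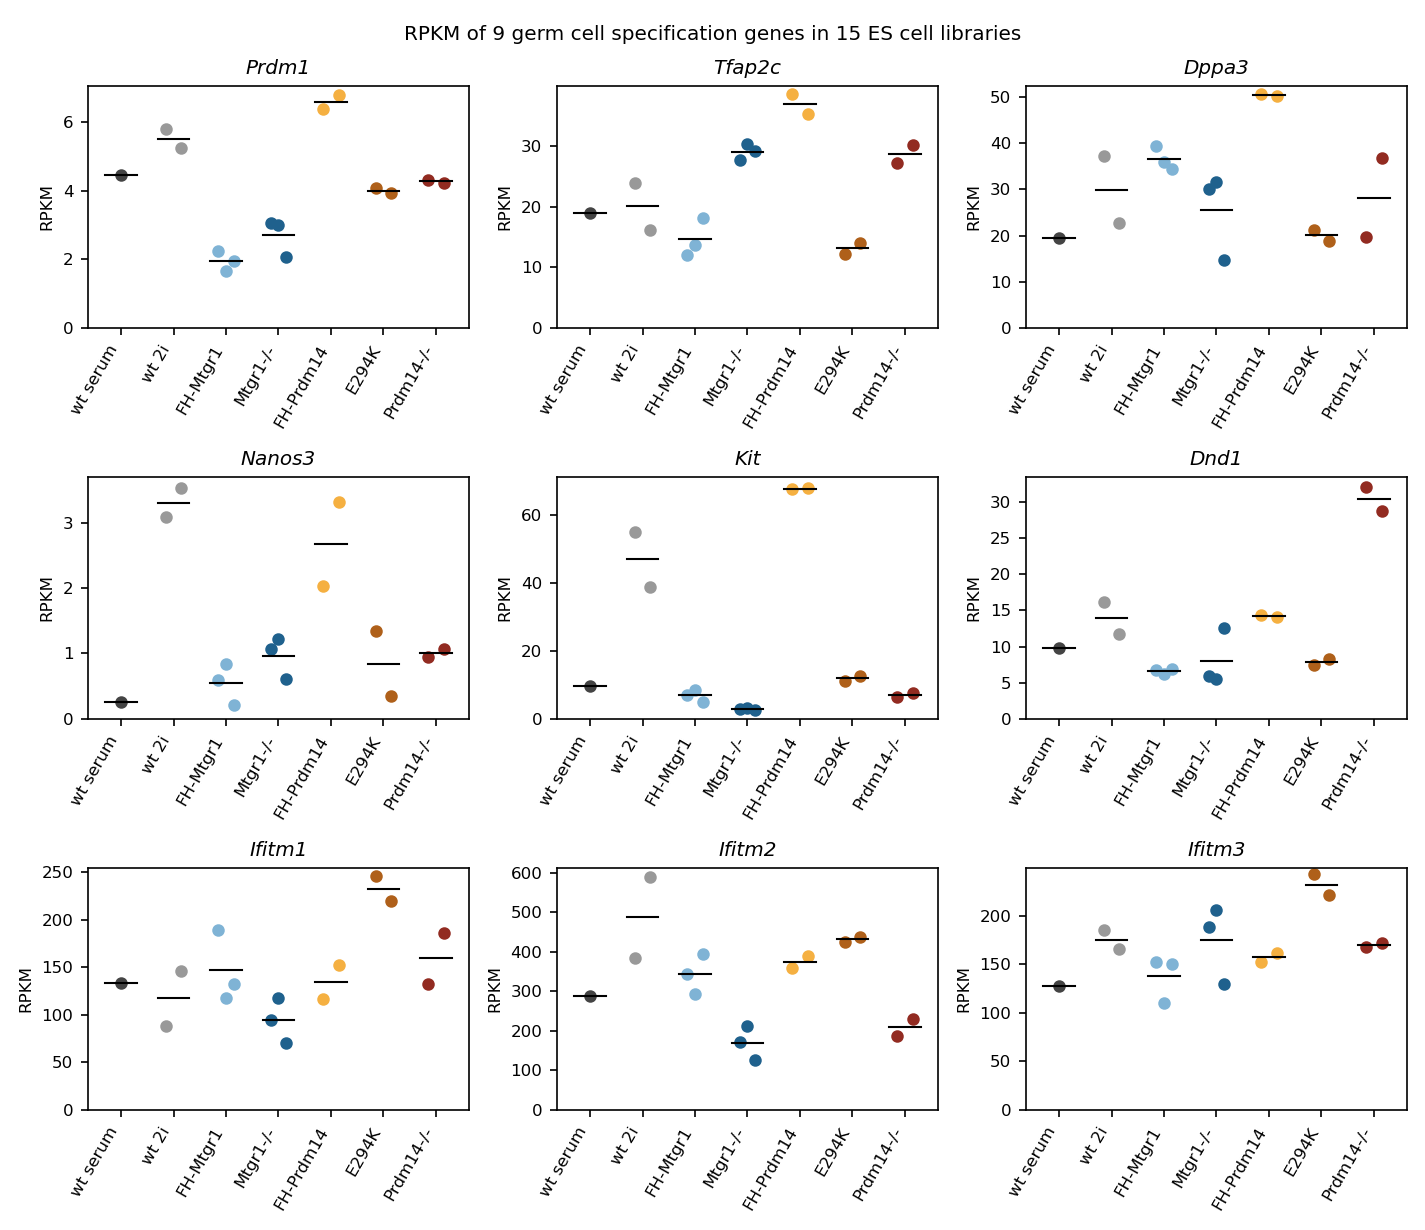
RPKM (vertical axes, starting at 0) of each gene in the 15 libraries, by condition. Points are libraries and black lines the mean of a condition; Kit is at 67.6 and 67.9 RPKM in FH-Prdm14 against 12.7 RPKM or less in every other serum+LIF library, and Dnd1 is at 28.7 and 32.1 RPKM in Prdm14-/- against 16.1 RPKM or less in every other library.

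Differences between conditions were tested with limma on log2(RPKM + 0.5) over all 15 libraries, with Benjamini-Hochberg adjustment over the 13477 genes and a threshold of 0.05. Below, a difference is on this log2 scale with its standard error (SE), which makes changes of genes at low RPKM, Nanos3 above all, smaller than those of the RPKM. Between Mtgr1-/- and FH-Mtgr1, 1 of the 9 genes was higher and 3 were lower, where 52.3% of all genes passed (26.2% higher and 26.1% lower). Between Prdm14-/- and FH-Prdm14, 1 was higher and 3 were lower, where 25.2% of all genes passed (11.4% higher and 13.8% lower). Between E294K and FH-Prdm14, 0 were higher and 5 were lower, where 19.5% of all genes passed (6.35% higher and 13.2% lower). FH-Prdm14 against FH-Mtgr1 gave 5 higher and 0 lower, with 41.6% of all genes called (26.2% higher and 15.4% lower). The medians over the 9 genes were 0.16, -0.57, -0.82 and 1.05 in these 4 comparisons, where the medians over all genes were -0.01, -0.09, -0.06 and 0.11. With 1 library left out, 3 to 5 members passed in the first comparison, 1 to 4 in the second, 2 to 3 in the third and 4 to 5 in the fourth. These comparisons share libraries: FH-Prdm14 is in 3 of the 4 and FH-Mtgr1 in 2.

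**Figure D2:**
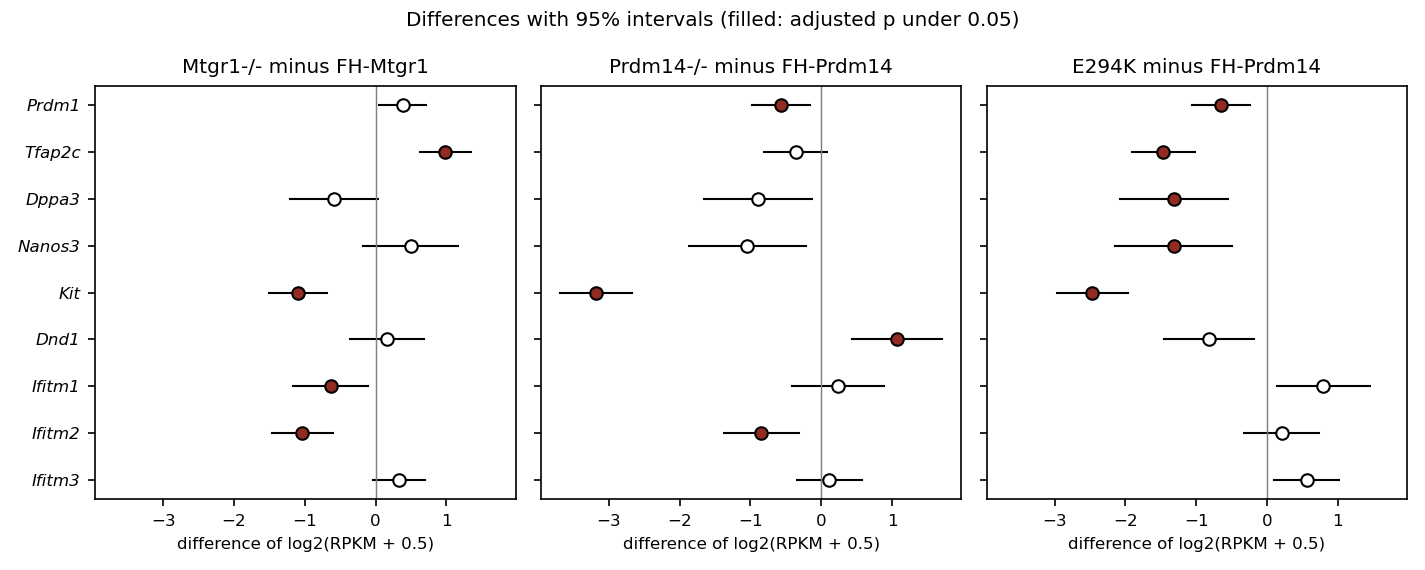
Difference of log2(RPKM + 0.5) (horizontal axes) for each gene in 3 comparisons; points are the fitted differences, lines their 95% intervals, and filled points have an adjusted p under 0.05. Kit lies left of 0 in all 3 panels, at -1.10, -3.19 and -2.46, and Tfap2c lies on opposite sides in Mtgr1-/- (0.98) and in E294K (-1.46).

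Kit, the receptor tyrosine kinase for stem cell factor on which migrating germ cells depend (5:75970941-76052747 on the plus strand of NCBIM37, the assembly also called mm9), separated the conditions most. It was at 9.74 RPKM in wt serum+LIF and at 55.1 and 38.9 RPKM in 2i+LIF. FH-Prdm14 held 67.6 and 67.9 RPKM, Prdm14-/- 6.32 and 7.74 RPKM, and E294K 11.1 and 12.7 RPKM. In the Mtgr1 lines Kit was at 7.11, 8.58 and 4.96 RPKM with FH-Mtgr1 and at 2.94, 3.19 and 2.52 RPKM without Mtgr1. The libraries of FH-Prdm14 and of 2i+LIF were thus high, all others were low, and Mtgr1-/- was below every other library, with only the ranges of Prdm14-/- and FH-Mtgr1 overlapping among neighbours in the order of means.

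Kit fell by 3.19 (SE 0.23, adjusted p = 6.0e-06) from FH-Prdm14 to Prdm14-/-, which is 9.10-fold on the scale used, and by 2.46 (SE 0.23, adjusted p = 6.2e-05) from FH-Prdm14 to E294K. It fell by 1.10 (SE 0.19, adjusted p = 0.00048) from FH-Mtgr1 to Mtgr1-/-. These 3 calls held in every alternative and with any single library left out. The fall in the Prdm14 lines was larger than that in the Mtgr1 lines, by 2.09 (SE 0.30, adjusted p = 0.00052). E294K was above Prdm14-/- by 0.72 (SE 0.23, adjusted p = 0.033), a call that was lost without E294K F10 (adjusted p = 0.092), E294K G6 (0.17) or Prdm14-/- G6 (0.20), without the filter on low values and with an adjustment for GC content (both 0.053). That call held in 6 of the 9 alternatives that left no single library out. Between the knockouts, Mtgr1-/- was below Prdm14-/- by 1.15 (SE 0.21, adjusted p = 0.0016). Against the single wt serum+LIF library, Mtgr1-/- was lower by 1.60 (SE 0.27, adjusted p = 0.00088), whereas the difference of Prdm14-/- was -0.45 (95% interval -1.07 to 0.17).

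**Figure D3:**
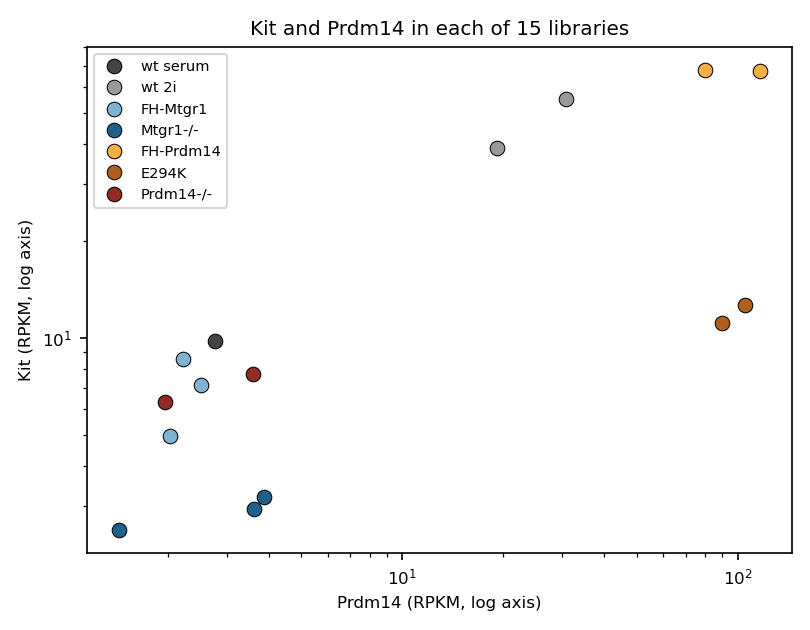
Kit against Prdm14 (RPKM, both axes logarithmic) in each of the 15 libraries, coloured by condition. The libraries with much Prdm14 RNA part into FH-Prdm14, with Kit at 67.6 and 67.9 RPKM, and E294K, with Kit at 11.1 and 12.7 RPKM.

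Prdm14 RNA itself did not differ between E294K and FH-Prdm14 beyond the spread of the libraries (difference 0.01, 95% interval -0.81 to 0.83), while Kit did. Kitl, the ligand of Kit, was at 1.34 RPKM or less in every library. It was higher in Mtgr1-/- (1.07 to 1.25 RPKM) than in FH-Mtgr1 (0.260 to 0.346 RPKM), by 1.09 (SE 0.18, adjusted p = 0.00033), a direction opposite to that of its receptor. The bases just before a RefSeq start site of Kit are shown because they hold a match to GCCNNNGGC, the palindrome bound by AP-2 factors such as Tfap2c, here in capitals at positions -134 to -126 from the start. The window is 5:75574837-75574986 of GRCm38.p6 (plus strand), not of the build used for the counts.
Kit: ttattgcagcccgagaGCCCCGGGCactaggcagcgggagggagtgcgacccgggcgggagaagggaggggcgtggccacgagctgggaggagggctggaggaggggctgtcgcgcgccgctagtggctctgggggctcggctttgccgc
The palindrome, searched on both strands, is in 16.6% of all 32851 RefSeq promoter windows, which reach from 250 bases before to 50 bases after a start, and in 2 of the 6 genes of the 9 that had a window (Kit and Nanos3). GGTCTCTAA, the core of the Prdm14 motif, is in 0.256% of all windows and in 0 of the 7 windows of these 6 genes. At so low a share 0 matches in 7 windows are the usual outcome, so this count says nothing on Prdm14 sites at these genes. The paper describes Prdm14 binding as mainly at distal regulatory elements, which these windows do not cover. No windows were at hand for Tfap2c, Dppa3 and Dnd1.

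Prdm1, the zinc-finger repressor that starts the germ cell programme (10:44156983-44248307, minus strand), was low in all libraries. It was at 4.46 RPKM in wt serum+LIF, 5.80 and 5.24 RPKM in 2i+LIF, 6.39 and 6.80 RPKM in FH-Prdm14, 4.07 and 3.95 RPKM in E294K and 4.33 and 4.24 RPKM in Prdm14-/-. The Mtgr1 lines were lower, with 2.24, 1.65 and 1.96 RPKM in FH-Mtgr1 and 3.05, 3.001 and 2.08 RPKM in Mtgr1-/-. FH-Prdm14 was thus above all others, and the 6 Mtgr1 libraries were below all 9 others. The largest difference was between the rescue lines, FH-Prdm14 above FH-Mtgr1 by 1.54 (SE 0.17, adjusted p = 5.6e-05).

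Prdm1 fell by 0.57 (SE 0.19, adjusted p = 0.045) in Prdm14-/- and by 0.65 (SE 0.19, adjusted p = 0.031) in E294K, each against FH-Prdm14. The first call held in 4 of the 9 alternatives that left no single library out. The first call was lost when the clone entered as a replicate block (adjusted p = 0.065), with a pseudocount of 0.1 or no filter (both 0.059), with median-of-ratios scaling (0.065) and without any one of the 4 libraries (0.118 to 0.206), and the second without any one of its 4 libraries (0.123 to 0.157). From FH-Mtgr1 to Mtgr1-/- the difference was 0.38 (SE 0.15, adjusted p = 0.054). It passed with a pseudocount of 0.1 (0.049), with median-of-ratios scaling (0.038), with voom on the reads (0.028), with the GC adjustment (0.040), and without FH-Mtgr1 A3 (0.045) or Mtgr1-/- C3 (0.53, adjusted p = 0.010), and not in the other alternatives or without any of the other 4 libraries. The difference between the knockout effects was 0.95 (SE 0.24, adjusted p = 0.012), and it was lost without FH-Prdm14 F10 (0.053). Mtgr1-/- was below Prdm14-/- by 0.59 (SE 0.17, adjusted p = 0.020), a call lost in a fit of these conditions alone (0.075) and without Prdm14-/- G6 (0.088) or F10 (0.075). Markers of primitive and parietal endoderm, a lineage that also uses Prdm1, summed to 34.1 and 34.3 RPKM in FH-Prdm14 and 23.4 and 33.9 RPKM in E294K. The sums were 17.6 and 45.8 RPKM in Prdm14-/-, 17.8 to 27.1 RPKM in FH-Mtgr1 and 11.5 to 18.2 RPKM in Mtgr1-/-, with all 7 genes detected in each group. Lama1 made up most of the sum in FH-Prdm14, at a mean of 28.6 RPKM. Of the 6 markers tested, 1 was higher and 3 were lower in FH-Prdm14 than in FH-Mtgr1 (median -1.15). Among all genes 26.2% were higher and 15.4% lower there. The part of these markers in the Prdm1 levels was not tested.

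Tfap2c, the AP-2 factor that works with Prdm1 in PGCs and also marks trophoblast (2:172375093-172384122, plus strand), moved in opposite directions in the Mtgr1 knockout and in E294K. It was at 19.0 RPKM in wt serum+LIF and 24.0 and 16.1 RPKM in 2i+LIF. FH-Mtgr1 held 12.1, 13.8 and 18.1 RPKM and Mtgr1-/- 27.7, 30.4 and 29.2 RPKM, with no overlap. FH-Prdm14 held 38.6 and 35.4 RPKM, Prdm14-/- 27.2 and 30.3 RPKM, and E294K 12.2 and 14.0 RPKM. E294K was therefore below both FH-Prdm14 and the knockout it was made from, at the level of FH-Mtgr1.

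Tfap2c rose by 0.98 (SE 0.17, adjusted p = 0.00042) from FH-Mtgr1 to Mtgr1-/-, from a mean of 14.7 to 29.1 RPKM. It fell by 1.46 (SE 0.20, adjusted p = 0.00059) from FH-Prdm14 to E294K and by 1.10 (SE 0.20, adjusted p = 0.0025) from Prdm14-/- to E294K, whereas Prdm14-/- differed from FH-Prdm14 by -0.36 (95% interval -0.80 to 0.08). The effects of the knockouts differed by 1.35 (SE 0.26, adjusted p = 0.0028). The calls for Tfap2c held in every alternative and with any single library left out. In direct comparison the knockouts differed by 0.02 (95% interval -0.39 to 0.42), and against the wt serum+LIF library the differences were 0.60 for Mtgr1-/- (adjusted p = 0.063) and 0.58 for Prdm14-/- (adjusted p = 0.10), of which the first passed with median-of-ratios scaling (0.75, adjusted p = 0.024).

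Markers of trophoblast were read beside Tfap2c. The summed level of 6 such genes was 44.7 to 45.1 RPKM in Mtgr1-/-, most of it from Hand1, and 6.82 to 9.37 RPKM in FH-Mtgr1. It was at most 5.43 RPKM in FH-Prdm14, 9.36 and 18.1 RPKM in Prdm14-/- and 6.90 and 7.26 RPKM in E294K. In wt cells it was 4.48 RPKM in serum+LIF and 4.445 and 8.785 RPKM in 2i+LIF. Of the 4 that were tested, 3 passed as higher without Mtgr1 than with FH-Mtgr1 (2 without any one library but Mtgr1-/- C3), where 26.2% of all genes were higher. Hand1, a bHLH factor of placenta and mesoderm, led them, at 33.7 to 36.1 RPKM against 1.87 to 3.31 RPKM (difference 3.63, SE 0.38, adjusted p = 1.5e-05). Cdx2 and Elf5, which define trophoblast stem cells, were at 0.452 to 1.19 and 0.271 to 0.497 RPKM in Mtgr1-/-. The part of these genes in the Tfap2c difference was not tested. In bulk RNA, a change in the share of cells that express a gene and a change in RNA per cell cannot be told apart.

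Dppa3 (Stella), the maternal and germ cell factor that guards DNA methylation marks (6:122576428-122580290, plus strand), differed widely between clones of the knockouts. It was at 19.5 RPKM in wt serum+LIF, 37.2 and 22.6 RPKM in 2i+LIF, 39.4, 35.9 and 34.4 RPKM in FH-Mtgr1, 30.0, 31.5 and 14.8 RPKM in Mtgr1-/-, 50.6 and 50.3 RPKM in FH-Prdm14, 21.2 and 18.9 RPKM in E294K, and 19.6 and 36.9 RPKM in Prdm14-/-. FH-Prdm14 was above all others, and Mtgr1-/- C3 and Prdm14-/- G6 were far below the other clones of their groups. The fall of 1.31 (SE 0.35, adjusted p = 0.022) from FH-Prdm14 to E294K was the only call, and it was lost without any one of the 4 libraries (adjusted p = 0.093 to 0.123). From FH-Prdm14 to Prdm14-/- the difference was -0.89 (SE 0.35, adjusted p = 0.083), or -1.34 (adjusted p = 0.032) without Prdm14-/- F10. From FH-Mtgr1 to Mtgr1-/- it was -0.59 (SE 0.29, adjusted p = 0.10), or -0.24 without Mtgr1-/- C3.

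The reads of Dppa3 are also uncertain. The Stella:GFP transgene holds its first part, so that reads from the gene and from the transgene cannot be told apart by the RPKM. Of the 51-base stretches of its transcript that were found in the genome, 26.9% occurred at more than 1 place, up to 4. For Ifitm2 this share was 27.7%, for Ifitm1 15.7%, for Tfap2c 10.5% and for Ifitm3 9.76%, and for Dnd1 it was 0.631%. It was 0% for Prdm1, Nanos3 and Kit.

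Nanos3, an RNA-binding protein that keeps migrating germ cells alive (8:86697632-86700451, minus strand), was at the limit of detection, with 2 to 35 reads per library and 1 RPKM or more in 8 of 15. It was at 0.259 RPKM in wt serum+LIF (3 reads) and at 3.08 and 3.53 RPKM in 2i+LIF (24 and 33 reads). The ratio of 2i+LIF to serum+LIF in reads per read on genes was 12.85, with an exact 95% interval of 4.18 to 64.1 that covers counting error only. FH-Prdm14 had 2.03 and 3.32 RPKM, E294K 1.33 and 0.344 RPKM, and Prdm14-/- 0.945 and 1.07 RPKM. FH-Mtgr1 had 0.596, 0.839 and 0.215 RPKM and Mtgr1-/- 1.06, 1.21 and 0.605 RPKM. The pair in 2i+LIF and the pair of FH-Prdm14 were thus the 4 highest libraries.

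Nanos3 was higher in FH-Prdm14 than in FH-Mtgr1 by 1.61 (SE 0.35, adjusted p = 0.0034), a call that held with each library left out. It was lower in E294K than in FH-Prdm14 by 1.32 (SE 0.38, adjusted p = 0.030), lost with a pseudocount of 0.1 (0.053), with the GC adjustment (0.065), and without FH-Prdm14 G6 (0.062), FH-Prdm14 F10 (0.20) or E294K G6 (0.27). Between Prdm14-/- and FH-Prdm14 the difference was -1.04 (SE 0.38, adjusted p = 0.063), which passed when the clone entered as a replicate block (adjusted p = 0.019, or 0.0082 with the GC adjustment added), with a pseudocount of 1 and in a fit of these conditions alone (both 0.040), and not without any one of the 4 libraries (0.081 to 0.343). The difference between Mtgr1-/- and FH-Mtgr1 was 0.50 (95% interval -0.18 to 1.17). At these counts smaller changes were not detectable.

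Dnd1, the RNA-binding partner of Nanos proteins that keeps germ cells from becoming tumours, was the one member that was highest in a knockout. It was at 32.1 and 28.7 RPKM in Prdm14-/-, whereas FH-Prdm14 had 14.4 and 14.0 RPKM and E294K 7.46 and 8.25 RPKM. The other libraries held 9.82 RPKM in wt serum+LIF, 16.1 and 11.7 RPKM in 2i+LIF, 6.71, 6.22 and 6.90 RPKM in FH-Mtgr1 and 5.97, 5.46 and 12.5 RPKM in Mtgr1-/-. Neither Prdm14-/- library overlapped with any other, and Mtgr1-/- C3 was above the other Mtgr1 libraries.

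Dnd1 rose by 1.07 (SE 0.29, adjusted p = 0.019) from FH-Prdm14 to Prdm14-/-, a call lost without FH-Prdm14 G6 (0.085), FH-Prdm14 F10 (0.098) or Prdm14-/- G6 (0.12). Against the wt serum+LIF library it was higher in Prdm14-/- by 1.58 (SE 0.36, adjusted p = 0.011), lost without Prdm14-/- G6 (0.061). The larger differences were with E294K, which was below Prdm14-/- by 1.89 (SE 0.29, adjusted p = 0.0011), and with Mtgr1-/-, which was below Prdm14-/- by 1.96 (SE 0.27, adjusted p = 0.00026), and both held in every alternative and without any single library. FH-Prdm14 was above FH-Mtgr1 by 1.05 (SE 0.27, adjusted p = 0.0087), lost without FH-Prdm14 G6 (0.061) or F10 (0.051). From FH-Mtgr1 to Mtgr1-/- the difference was 0.16 (95% interval -0.36 to 0.68), and -0.19 without Mtgr1-/- C3. Mtgr1-/- minus wt serum+LIF was -0.38 (adjusted p = 0.41), or -0.73 (adjusted p = 0.014) without C3. The knockout effects on Dnd1 differed by -0.91 (SE 0.38, adjusted p = 0.087), which passed with the GC adjustment (0.017) and without Mtgr1-/- C3 (0.0016). Dnd1 thus lay, in the order of means, with Prdm14-/- first, then FH-Prdm14 and 2i+LIF, whose ranges overlapped, then wt serum+LIF, Mtgr1-/- and E294K, each overlapping with the next, and FH-Mtgr1 last.

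The 3 Ifitm genes encode small interferon-inducible membrane proteins. Ifitm3 (Fragilis) and Ifitm1 mark the nascent germ cells, and all 3 lie within one cluster on chromosome 7: Ifitm2 at 7:148140736-148141882 (minus strand), Ifitm1 at 7:148153120-148155724 (plus strand) and Ifitm3 at 7:148195485-148196669 (minus strand). Their RefSeq promoters (GRCm38.p6), from 120 bases before to 30 bases after the start, are shown because the genes moved differently. Capitals mark the core of the interferon-stimulated response element, GAAA and GAAA parted by any 2 bases, searched on both strands.
Ifitm1: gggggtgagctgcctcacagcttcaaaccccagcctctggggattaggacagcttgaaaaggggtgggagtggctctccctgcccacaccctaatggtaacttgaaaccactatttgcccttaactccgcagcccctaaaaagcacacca
Ifitm2: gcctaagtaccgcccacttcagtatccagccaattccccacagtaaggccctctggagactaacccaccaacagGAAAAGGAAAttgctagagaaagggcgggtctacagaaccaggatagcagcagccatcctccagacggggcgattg
Ifitm3: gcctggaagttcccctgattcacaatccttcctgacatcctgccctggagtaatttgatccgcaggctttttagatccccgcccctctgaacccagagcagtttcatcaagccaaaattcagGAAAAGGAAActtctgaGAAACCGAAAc
Ifitm2 holds 1 match (-46 to -37), Ifitm3 holds 2 (3 to 12 and 20 to 29 after the start) and Ifitm1 holds 0, and 3.44% of all windows hold one. The windows are 7:140967956-140968105 (Ifitm1), 7:140955932-140956081 (Ifitm2) and 7:141010715-141010864 (Ifitm3).

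Ifitm2 was lower in both knockouts than in their rescue lines. It was at 287 RPKM in wt serum+LIF, 385 and 589 RPKM in 2i+LIF, 343, 293 and 395 RPKM in FH-Mtgr1, and 172, 211 and 127 RPKM in Mtgr1-/-. FH-Prdm14 had 359 and 389 RPKM, E294K 426 and 437 RPKM, and Prdm14-/- 188 and 229 RPKM. The 5 knockout libraries were below the 10 others. Ifitm2 fell by 1.03 (SE 0.20, adjusted p = 0.0010) from FH-Mtgr1 to Mtgr1-/-, in every alternative, and by 0.85 (SE 0.24, adjusted p = 0.024) from FH-Prdm14 to Prdm14-/-. The second call held in 7 of the 9 alternatives that left no single library out. The second call was lost when the clone entered as a replicate block (adjusted p = 0.059) and without FH-Prdm14 G6 (0.083), FH-Prdm14 F10 (0.13) or Prdm14-/- G6 (0.17). E294K was above Prdm14-/- by 1.05 (SE 0.24, adjusted p = 0.0077), lost without E294K G6 (0.052) or Prdm14-/- G6 (0.077), and it differed from FH-Prdm14 by 0.21 (95% interval -0.32 to 0.74). The effects of the knockouts on Ifitm2 differed by -0.19 (95% interval -0.87 to 0.50). Against the wt serum+LIF library, Prdm14-/- differed by -0.47 (95% interval -1.12 to 0.18).

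Ifitm3 and Ifitm1 did not share this pattern. Ifitm3 was at 128 RPKM in wt serum+LIF, 185 and 165 RPKM in 2i+LIF, 153, 110.0 and 149.8 RPKM in FH-Mtgr1, 188, 206 and 129.7 RPKM in Mtgr1-/-, 153 and 161 RPKM in FH-Prdm14, 242 and 221 RPKM in E294K and 168 and 172 RPKM in Prdm14-/-. E294K was highest, and all other libraries lay between 110.0 and 206 RPKM. No comparison of Ifitm3 passed over all libraries. The difference between Mtgr1-/- and FH-Mtgr1 was 0.33 (95% interval -0.04 to 0.70), or 0.53 (adjusted p = 0.010) without Mtgr1-/- C3, and that between E294K and FH-Prdm14 was 0.56 (adjusted p = 0.080), or adjusted p = 0.0029 in a fit of these conditions alone. Ifitm1 was at 133 RPKM in wt serum+LIF, 88.0 and 146 RPKM in 2i+LIF, 189.6, 118 and 132 RPKM in FH-Mtgr1, 94.5, 117 and 70.8 RPKM in Mtgr1-/-, 117 and 152 RPKM in FH-Prdm14, 246 and 219.8 RPKM in E294K and 133 and 186 RPKM in Prdm14-/-. It was lower in Mtgr1-/- than in FH-Mtgr1 by 0.63 (SE 0.25, adjusted p = 0.0455), a call lost without the filter (0.076), with median-of-ratios scaling (0.060), and without FH-Mtgr1 A3 (0.18), FH-Mtgr1 C3 (0.068), Mtgr1-/- A3 (0.082) or Mtgr1-/- C3 (0.17). It was lower in Mtgr1-/- than in Prdm14-/- by 0.77 (SE 0.27, adjusted p = 0.046), a call lost without the filter (0.081), in a fit of these conditions alone (0.069), with median-of-ratios scaling (0.075), and without Mtgr1-/- A3 (0.090), Mtgr1-/- C3 (0.12), Prdm14-/- G6 (0.057) or Prdm14-/- F10 (0.29).

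The ratio of Ifitm2 to Ifitm3 within a library, which does not depend on scaling, parted the knockouts from the rest. It was 2.24 in wt serum+LIF, 2.08 and 3.57 in 2i+LIF, 2.25, 2.67 and 2.64 in FH-Mtgr1, 2.35 and 2.41 in FH-Prdm14 and 1.76 and 1.98 in E294K. In Mtgr1-/- it was 0.912, 1.03 and 0.979 and in Prdm14-/- 1.12 and 1.33. The mean was 0.973 ± 0.058 (SD, n = 3) in Mtgr1-/- and 2.52 ± 0.23 (SD, n = 3) in FH-Mtgr1, with a two-sided exact permutation p of 0.10, the smallest that 3 against 3 libraries allow. Clone C3, low in both genes, had the ratio of its sister clones. Of the transcript stretches found in the genome (above), 27.7% for Ifitm2 and 9.76% for Ifitm3 recurred there. Where the copies lie and how reads from them were counted was not examined. The part of such reads in this ratio was not tested.

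**Figure D4:**
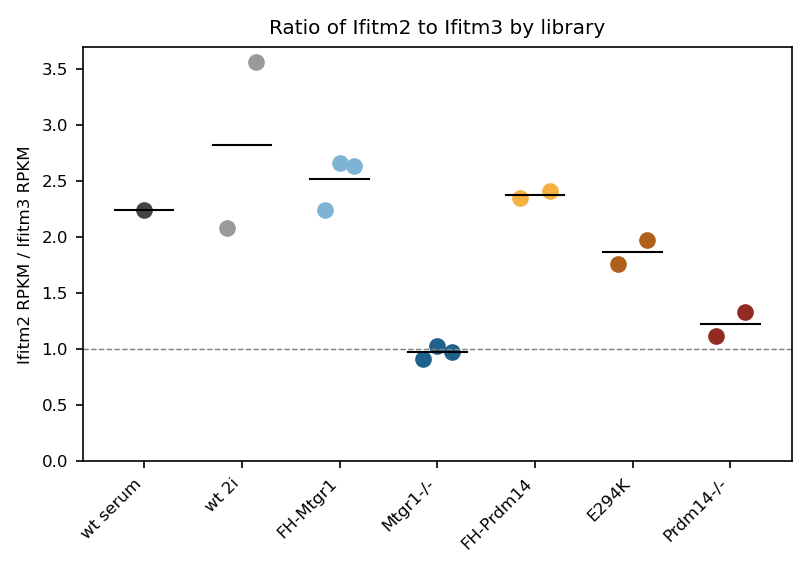
Ratio of Ifitm2 RPKM to Ifitm3 RPKM (vertical axis, starting at 0) in each library, by condition. Points are libraries, black lines the mean of a condition and the dashed line a ratio of 1; the knockout libraries lie between 0.912 and 1.33 and all others between 1.76 and 3.57.

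Other interferon-responsive genes were read as a list because of these promoters. Of 14, 8 were tested, and 3 were higher and 2 lower in Mtgr1-/- than in FH-Mtgr1, and 4 higher and 2 lower in Prdm14-/- than in FH-Prdm14 (medians 0.19 and 0.99), where 52.3% and 25.2% of all genes passed. The lower count in Prdm14-/- was 1 without FH-Prdm14 G6 or Prdm14-/- F10, and the higher count in Mtgr1-/- was 2 without FH-Mtgr1 C3, Mtgr1-/- A3 or Mtgr1-/- C1. Bst2, which encodes the antiviral membrane protein tetherin, fell by 1.61 (SE 0.13, adjusted p = 4.1e-06) from FH-Mtgr1 (497 to 672 RPKM) to Mtgr1-/- (170 to 212 RPKM), and rose by 1.74 (SE 0.17, adjusted p = 3.3e-05) from FH-Prdm14 (146 and 154 RPKM) to Prdm14-/- (478 and 524 RPKM). The wt serum+LIF library held 227 RPKM of Bst2, from which Mtgr1-/- differed by -0.28 (SE 0.19, adjusted p = 0.27) and Prdm14-/- by 1.14 (SE 0.20, adjusted p = 0.0040). Ifitm2 fell against both rescues. Isg15, a ubiquitin-like interferon-induced protein, rose in both, by 1.61 (SE 0.44, adjusted p = 0.0090) and 1.80 (SE 0.54, adjusted p = 0.029). Irf7, a central regulator of the interferon response, stayed at 0.649 RPKM or less in all libraries.

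The direct comparison of the media rested on 1 wt library in serum+LIF. Of the 9 genes 2 were higher in 2i+LIF and 0 lower, where 22.9% of all genes passed (9.28% higher and 13.6% lower). Kit rose by 2.19 (SE 0.29, adjusted p = 0.00040) and Nanos3 by 2.32 (SE 0.47, adjusted p = 0.0048). With only these 3 libraries in the fit, limma called 0 of the 9 genes (2 at an unadjusted p under 0.05, adjusted p = 0.26 for both) and 0 of all genes. Median-of-ratios scaling shifted the median of all genes by 0.11 here, and the share of calls that were higher went from 40.6% to 53.4%. It also moved the median by -0.10 between the rescue lines (share of higher calls from 63.1% to 52.6%) and by 0.13 between Mtgr1-/- and wt serum+LIF (40.2% to 52.0%). Prdm14 RNA, too, was higher in 2i+LIF, by 2.92 (95% interval 1.92 to 3.92).

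Against the wt serum+LIF library, Mtgr1-/- had 0 of the 9 genes higher and 3 lower, where 37.0% of all genes passed (14.9% higher and 22.1% lower). These were Kit, Ifitm2 (-0.78, SE 0.28, adjusted p = 0.045) and Prdm1 (-0.64, SE 0.22, adjusted p = 0.036), of which Ifitm2 and Prdm1 lost the call in a fit of these conditions alone (0.14 and 0.15) and with median-of-ratios scaling (0.12 and 0.076), Ifitm2 also without the filter (0.073) and without Mtgr1-/- A3 (0.066) or C3 (0.094), and Prdm1 also with the GC adjustment (0.056) and without C3 (0.069). Prdm14-/- had 1 gene higher, Dnd1, and 0 lower, where 25.4% of all genes passed (11.7% higher and 13.7% lower). Between the knockouts, 0 of the 9 genes were higher in Mtgr1-/- and 4 were lower, where 35.4% of all genes passed (14.4% higher and 21.1% lower). E294K had 2 higher and 2 lower than Prdm14-/-, where 32.9% passed (15.1% higher and 17.8% lower). The difference of Mtgr1-/- from its rescue lay above that of Prdm14-/- for 4 of the 9 genes, Kit, Tfap2c, Prdm1 and Nanos3, where 31.4% of all genes passed (17.1% above and 14.3% below).

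Around the members stand the signals that induce germ cells and the genes that follow. Of 16 genes of the BMP and WNT pathways, 14 were tested, and against its rescue Mtgr1-/- had 9 higher and 0 lower (median 0.73), while Prdm14-/- had 7 higher and 0 lower (median 0.66), where 26.2% and 11.4% of all genes were higher. The first count was 6 without FH-Mtgr1 C3, and the second was 4 without FH-Prdm14 G6, FH-Prdm14 F10 or Prdm14-/- G6. Bmp8b, a BMP ligand of the extraembryonic ectoderm, was at 7.997 to 18.7 RPKM in Mtgr1-/- against 0.855 to 1.17 RPKM in FH-Mtgr1 (difference 2.97, SE 0.33, adjusted p = 2.2e-05), and at 4.85 and 9.62 RPKM in Prdm14-/- against 0.941 and 1.67 RPKM in FH-Prdm14 (2.06, SE 0.40, adjusted p = 0.0027). The wt serum+LIF library held 1.65 RPKM of Bmp8b, below both knockouts. Id genes, which BMP signalling turns on, were also higher than in the rescues. In Mtgr1-/- Id2 rose by 1.46 (SE 0.26, adjusted p = 0.00052) and Id3 by 2.08 (SE 0.72, adjusted p = 0.028). In Prdm14-/- Id1 rose by 2.14 (SE 0.43, adjusted p = 0.0032) and Id2 by 1.56 (SE 0.31, adjusted p = 0.0034). In FH-Prdm14 against FH-Mtgr1, Bmp4 was higher by 1.93 (SE 0.33, adjusted p = 0.00083). There Id1 was lower by 2.40 (SE 0.39, adjusted p = 0.00059) and Id2 by 1.23 (SE 0.29, adjusted p = 0.0052). The part of BMP ligands in the Id levels was not tested. Id1 was at 57.2 RPKM in wt serum+LIF, from which Prdm14-/- differed by 0.36 (SE 0.52, adjusted p = 0.63). In E294K against FH-Prdm14 only Id1 passed, by 2.08 (SE 0.43, adjusted p = 0.0056), at 63.6 and 77.3 RPKM against 15.2 and 17.4 RPKM, a call lost without E294K F10 or FH-Prdm14 G6. E294K was below Prdm14-/- in 5 genes of the list and above in 0, Bmp8b (-1.81, SE 0.40, adjusted p = 0.0063) and Wnt3 (-1.80, SE 0.37, adjusted p = 0.0044) among them. That count was 1 without E294K F10 or Prdm14-/- G6 and 2 without E294K G6. T (Brachyury), the mesoderm factor that WNT3 induces in PGC precursors, stayed at 1.64 RPKM or less in all libraries.

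Later germ cell genes went the other way. Of 13 genes of the meiotic and piRNA programmes, 11 were tested, and 8 were lower and 0 higher in Mtgr1-/- than in FH-Mtgr1 (median -1.15), 6 lower and 0 higher in Prdm14-/- than in FH-Prdm14 (median -0.78), and 5 lower and 0 higher in E294K than in FH-Prdm14 (median -0.36), where 26.1%, 13.8% and 13.2% of all genes were lower. The first count was 8 or 9 without any one library, the second was 4 without FH-Prdm14 G6 or Prdm14-/- G6, and the third was 2 without E294K F10 or FH-Prdm14 G6 and 3 without E294K G6 or FH-Prdm14 F10. Mael, a piRNA pathway protein, fell by 2.74 (SE 0.17, adjusted p = 1.1e-06) from FH-Mtgr1 (42.1 to 55.3 RPKM) to Mtgr1-/- (5.37 to 8.48 RPKM), with 61.7 RPKM in wt serum+LIF. Sycp3, of the synaptonemal complex, fell by 3.10 (SE 0.28, adjusted p = 5.9e-06) between the same lines. The list was also low in wt cells in 2i+LIF, with a median of -1.72 against wt serum+LIF. Its 13 genes summed to 33.3 and 38.8 RPKM in 2i+LIF against 113.7 RPKM in wt serum+LIF. The sums were 44.6 and 55.8 RPKM in Prdm14-/- and 17.0 to 29.4 RPKM in Mtgr1-/-. Dazl, an RNA-binding protein that licenses germ cells for meiosis, was lower than in FH-Prdm14 (11.2 and 13.4 RPKM) by 1.73 (SE 0.22, adjusted p = 0.00017) in Prdm14-/- (2.88 and 3.86 RPKM) and by 2.07 (SE 0.22, adjusted p = 8.7e-05) in E294K. Prdm14-/- was not below wt serum+LIF in Dazl (2.25 RPKM, difference 0.48, SE 0.26, adjusted p = 0.19). Dazl followed the medium as Kit did, with 11.6 and 16.3 RPKM in 2i+LIF against 2.25 RPKM in serum+LIF (2.38, SE 0.26, adjusted p = 0.00015), while Mael fell by 4.01 (SE 0.26, adjusted p = 1.0e-05) in 2i+LIF.

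**Figure D5:**
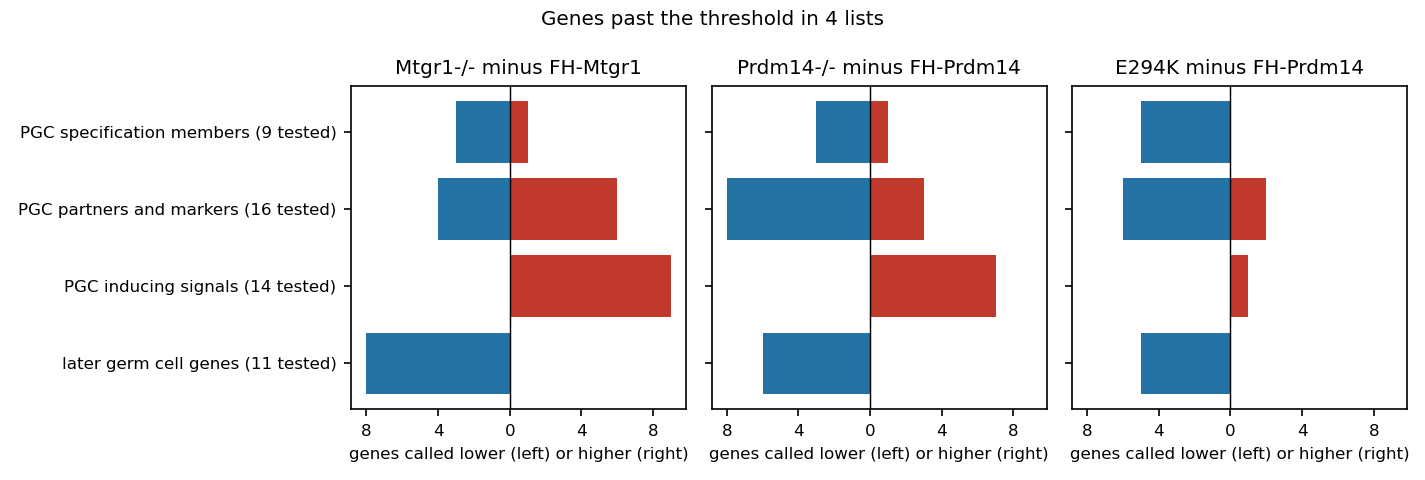
Number of genes of 4 lists (horizontal axis, lower to the left in blue and higher to the right in red) past the threshold in 3 comparisons. The inducing signals are called higher and not lower (9, 7 and 1 genes) and the later germ cell genes lower and not higher (8, 6 and 5), while the members are called in both directions in the 2 knockout comparisons.

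Partners and markers of PGCs, a list of 16 that were all tested and that shares Pou5f1, Sox2 and Nanog with the mESC markers, had 6 genes higher and 4 lower in Mtgr1-/- than in FH-Mtgr1, 3 higher and 8 lower in Prdm14-/- than in FH-Prdm14, and 2 higher and 6 lower in E294K than in FH-Prdm14 (medians 0.21, -0.70 and -0.42). Among all genes 26.2%, 11.4% and 6.35% were higher and 26.1%, 13.8% and 13.2% lower in these comparisons. In Prdm14-/- the lower count was 5 without FH-Prdm14 G6, and the higher count was 2 without it, 1 without FH-Prdm14 F10 and 0 without Prdm14-/- G6. In E294K the lower count was 2 without any one of the 4 libraries, and the higher count was 1 without FH-Prdm14 F10. Tcl1, a coactivator of the kinase Akt, fell in all 3, by 1.71 (SE 0.22, adjusted p = 6.9e-05), 1.97 (SE 0.27, adjusted p = 0.00033) and 1.53 (SE 0.27, adjusted p = 0.0026). It was at 85.8 and 119 RPKM in 2i+LIF and 50.9 and 54.7 RPKM in FH-Prdm14, the conditions in which Kit was also highest, and at 18.3 RPKM or less elsewhere, with 8.22 RPKM in wt serum+LIF, from which Prdm14-/- differed by 0.64 (SE 0.34, adjusted p = 0.17). Cxcr4, the receptor that guides migrating germ cells, was lower than in FH-Prdm14 (2.52 and 2.96 RPKM) by 1.86 (SE 0.27, adjusted p = 0.00050) in Prdm14-/- and by 1.55 (SE 0.27, adjusted p = 0.0024) in E294K. In wt serum+LIF Cxcr4 was at 0.452 RPKM, from which Prdm14-/- differed by -0.10 (SE 0.34, adjusted p = 0.85). Itgb3, the integrin chain CD61 used to sort PGC-like cells, was higher in Mtgr1-/- than in FH-Mtgr1 by 1.33 (SE 0.32, adjusted p = 0.0043).

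The state of the mESCs moved in the same comparisons. Of 7 mESC markers 3 were lower in Mtgr1-/- than in FH-Mtgr1, 6 in Prdm14-/- and 5 in E294K than in FH-Prdm14, and 0 were higher in any of these. Among all genes 26.1%, 13.8% and 13.2% were lower in these comparisons. The count for E294K was 0 without any one of its 4 libraries, while the others were 3, and 5 or 6, without a library. Of 4 markers of formative epiblast 3 were higher and 1 lower (Otx2) in Mtgr1-/-, and all 4 were higher in Prdm14-/- and in E294K, where 26.2%, 11.4% and 6.35% of all genes were higher. FH-Prdm14 itself had 6 of the 7 mESC markers above FH-Mtgr1 and 0 below. The median of the mESC markers in Prdm14-/- was -1.59 against FH-Prdm14 and -0.75 against the wt serum+LIF library. In Mtgr1-/- it was -0.30 against FH-Mtgr1 and -1.64 against that library. For the epiblast markers these medians were 2.83 and 0.66 in Prdm14-/-, and 1.80 and 1.185 in Mtgr1-/-. The summed epiblast markers were at 42.4 and 53.7 RPKM in FH-Prdm14 and 23.1 and 38.8 RPKM in 2i+LIF, against 160 to 489 RPKM in the other libraries. FH-Prdm14 also stood apart in the Zscan4 genes of the two-cell-like state, with 30.2 and 49.6 RPKM in sum against 5.91 RPKM or less elsewhere, while Tcstv1 and Tcstv3 of that list were at 0 in all libraries. The part of these shifts in the levels of Kit, Nanos3, Prdm1 and Tfap2c was not tested.

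Across the 15 libraries, the genes whose log2(RPKM + 0.5) was most like that of Kit were Atp2a3 (Pearson's r = 0.965), Itpka (0.964) and Ano9 (0.960), and those most like Dnd1 were Radil (0.972), Yipf2 (0.955) and Ppp1r14a (0.948). Ifitm2 was most like Ndufb4 (0.939), Mzt1 (0.938) and Uqcr10 (0.931), Prdm1 most like Dlgap3 (0.922), Nanos3 most like Jak3 (0.913) and Tfap2c most like Scap (0.870). Dppa3 (0.810 with Cln8), Ifitm3 (0.800 with Neat1) and Ifitm1 (0.786 with 1700021F05Rik) had no partner as close. Among the members themselves, the highest values were Prdm1 with Kit (0.786), Nanos3 with Kit (0.720) and Kit with Ifitm2 (0.697), while Ifitm2 and Ifitm3 had 0.222. These describe 15 libraries that share conditions, clones and depth, and they carry no test.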

How the data were processed

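RNA from mESCs was measured by RNA-seq of oligo-dT purified mRNA, prepared without a strand mark. Reads had been placed on mm9 by Tophat and tallied over RefSeq genes by HTSeq, and the authors deposited the result as RPKM with gene lengths (versions not given in the sources used here). RPKM values were multiplied by length and divided by the smallest non-zero product of their library, taken as a single read. Of the results, 100.0% were whole (tolerance 0.01), which gave the depth and the reads for voom. Overlapping genes cannot be told apart without strand.

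Groups were taken from the labels. The 9 members and all gene lists were chosen with earlier results of these data known. Genes with at least 1 RPKM in 2 or more libraries were kept, log2(RPKM + 0.5) was fitted with limma 3.58.1 in R 4.3.3 (1 mean per condition over 15 libraries, trended eBayes), with Benjamini-Hochberg adjustment over 13477 genes. A condition with 1 library is assumed to vary like the others. The paper's methods name a NextSeq or a HiSeq instrument for the RNA-seq, and the instrument was not a term of the fit. The methods call the replicates independent and biological, and those of the mutant and rescue lines are separate clones. No pair of libraries agreed within sampling noise. All members were named, with at most 3 genes per list and comparison (the largest differences past the threshold) and the 3 genes most like each member among those with a mean of at least 5 RPKM. Genes outside this rule (Pou5f1, Sox2, Cdx2, Elf5, Irf7, T, Tcstv1 and Tcstv3) were named for their levels after these were seen.

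Clone names in the labels pair knockout and rescue lines. Deviations from the group means of same-named clones correlated at 0.0633 (A3), -0.182 (C1) and 0.0278 (C3) between Mtgr1-/- and FH-Mtgr1, 0.299 between Prdm14-/- and FH-Prdm14, 0.0797 between E294K and FH-Prdm14 and 0.0405 between E294K and Prdm14-/-. Alternatives were pseudocounts of 0.1 and 1, no filter, a fit of the conditions compared alone, median-of-ratios scaling, voom on the reads, a replicate block by clone and leaving out each library. An adjustment for transcript GC content (lowess, span 0.3, 12651 genes, all 9 members) was chosen after seeing the data. It was run alone and, where clones pair, together with the replicate block by clone. Across genes, the deviation of a library from the mean level correlated with GC content (Spearman). The values were -0.46 in wt serum+LIF, -0.34 and -0.27 in E294K, 0.29 and 0.19 in FH-Prdm14, and 0.47 and 0.25 in Prdm14-/-. In 2i+LIF they were 0.22 and -0.054, in FH-Mtgr1 -0.16, -0.27 and -0.18, and in Mtgr1-/- -0.20, -0.084 and 0.24. Their sign thus followed condition between E294K or wt serum+LIF and the other Prdm14 lines. The fit was tested on simulated data. Positions and the uniqueness of 51-base stretches came from NCBIM37, promoters from RefSeq (GRCm38.p6), with entries for 6 of the 9 genes. Other steps used Python 3.11.15.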

Additional observations from a re-analysis of the deposited data

Results flagged for a closer look

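For 4 of the 9 genes, the difference of Mtgr1-/- from FH-Mtgr1 was not that of Prdm14-/- from FH-Prdm14 in a limma test of these differences, which 31.4% of all genes passed (17.1% above and 14.3% below). The count was 2 without FH-Prdm14 F10 and 5 without Mtgr1-/- C3. The effect in the Mtgr1 lines minus that in the Prdm14 lines, on the log2(RPKM + 0.5) scale, was 2.09 for Kit (SE 0.30, adjusted p = 0.00052), 1.35 for Tfap2c (SE 0.26, adjusted p = 0.0028), 1.54 for Nanos3 (SE 0.49, adjusted p = 0.031) and 0.95 for Prdm1 (SE 0.24, adjusted p = 0.012). Kit fell in both pairs of lines, less in the Mtgr1 lines. Tfap2c rose in the Mtgr1 lines, whereas its difference in the Prdm14 lines (-0.36) did not pass. For Nanos3 and Prdm1 the differences were 0.50 and 0.38 in the Mtgr1 lines and -1.04 and -0.57 in the Prdm14 lines, and only the last passed. The Prdm14 rescue lines carried 79.8 and 116 RPKM of Prdm14 RNA, and the FH-Mtgr1 lines at least 25.5 RPKM of Cbfa2t2 against 40.7 RPKM in the wt, so that Prdm14 RNA in its rescue was above the wt level and Cbfa2t2 RNA in its rescue was not. The part of this in the 4 differences was not tested. The call for Nanos3 was lost with a pseudocount of 0.1 (0.052), without the filter (0.053), with voom (0.051) and without FH-Mtgr1 C3 (0.062), Mtgr1-/- A3 (0.061), Mtgr1-/- C1 (0.067), FH-Prdm14 F10 (0.13), Prdm14-/- G6 (0.087) or Prdm14-/- F10 (0.068).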

How the results depend on the processing

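Of the 36 calls made for the 9 genes in 10 comparisons (90 tests), 17 held in every alternative and without any single library, and 0 changed sign. Over 470 refits of called genes, 78 lost the call. In a fit of the conditions compared alone, the number of the 9 genes called was 9 instead of 5 for E294K against FH-Prdm14, 2 instead of 4 between the knockouts, 0 instead of 2 for 2i+LIF against serum+LIF and 1 instead of 3 for Mtgr1-/- against wt serum+LIF, and all genes called were 7214 instead of 2633 (E294K against FH-Prdm14), 0 instead of 3084 (the media) and 625 instead of 3423 (Prdm14-/- against wt), as fewer libraries set the spread. With a library left out, the number of members called ranged from 3 to 5 (Mtgr1-/- against FH-Mtgr1), 1 to 4 (Prdm14-/- against FH-Prdm14), 2 to 3 (E294K against FH-Prdm14), 2 to 4 (E294K against Prdm14-/-), 4 to 5 (the rescues), 2 to 4 (the knockouts), 2 to 3 (the media), 2 to 3 and 0 to 1 (Mtgr1-/- and Prdm14-/- against wt) and 2 to 5 (difference of the knockout effects), and all genes called fell as low as 1679, 869, 1515, 2844, 2995, 926 (without Prdm14-/- G6) and 2611 in the second to sixth, ninth and last of these. Where this left 1 library in a group, that library was assumed to vary like the others. The replicate block by clone gave 4, 3, 5 and 4 members in the 4 comparisons within clones and 4 for the difference, and it changed no call other than the 3 given for Prdm1, Ifitm2 and Nanos3. Signs turned only for genes that were not called. With the GC adjustment these were Ifitm2 between the rescues (-0.023), Nanos3 between the knockouts (0.10), Tfap2c between the media (-0.078) and Prdm1 in Prdm14-/- against wt (0.23), the last also with median-of-ratios scaling (0.020). Without a library they were Dnd1 (-0.19 to 0.37) in Mtgr1-/- against FH-Mtgr1, Ifitm1 (-0.011 to 0.48) in Prdm14-/- against FH-Prdm14, Nanos3 (-0.83 to 0.29) and Dppa3 (-0.86 to 0.030) in E294K against Prdm14-/-, Ifitm1 (-0.29 to 0.097) between the rescues, Ifitm3 (-0.12 to 0.21), Tfap2c (-0.057 to 0.095), Dppa3 (-0.60 to 0.29) and Nanos3 (-0.20 to 0.12) between the knockouts, Tfap2c (-0.23 to 0.33) and Ifitm1 (-0.60 to 0.13) between the media, Ifitm1 (-0.0097 to 0.48) in Prdm14-/- against wt, and Ifitm2 (-0.36 to 0.0063) and Dppa3 (-0.14 to 0.76) in the difference of effects. Nanos3, with 2 to 35 reads, is limited by depth.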
